A study of Mus musculus with 22 samples.

Results

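Ddit4 and 7 genes that carry amino acids or act upstream of mTORC1 were examined in single germinal center B cells of immunized mice. The 8 genes (Ddit4, Sesn1, Sesn3, Tsc1, Tsc2, Slc7a1, Slc7a5 and Slc3a2) are among 14407 genes of the unique molecular identifier (UMI) count table, and all 8 were found there by symbol. They were selected on their UMI counts by cell state in these same libraries, so their levels by state are given below as a description without a test. The cells came from the spleens of male C57BL/6 mice labelled as 8 weeks old, immunized into the peritoneum with either NP-KLH, a hapten on a carrier protein, or ovalbumin (OVA), both in alum with LPS. Libraries NP 1 and NP 2 hold NP-binding germinal center B cells (B220+, Fas-high, GL-7-high) sorted on day 13. Library OVA 1 holds germinal center B cells sorted without regard to antigen binding, on a day not given in the sources used here. With 1 OVA library, the antigen and the sort gate cannot be told apart, and all comparisons below were therefore made between cells within each library. Nothing in the labels says that the libraries came from separate mice, and p-values below may therefore reflect technical spread among the libraries alone.

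Growth of a germinal center B cell is tied to mTORC1, the kinase complex that drives protein synthesis when growth signals and amino acids are both present. Light zone cells, marked by Cd83, take up antigen and receive help from T cells, and some of them switch on Myc. Dark zone cells, marked by Cxcr4, divide and mutate their immunoglobulin genes. Ddit4 encodes REDD1, a stress-induced protein that restrains mTORC1 through the complex of Tsc1 and Tsc2, which acts on the small GTPase Rheb. The sestrins Sesn1 and Sesn3 are stress-responsive inhibitors of mTORC1, and sestrins can sense leucine through the GATOR complexes. Slc7a5 pairs with Slc3a2 to carry large neutral amino acids such as leucine, and Slc7a1 carries arginine and lysine.

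The 3 libraries held 3765 (NP 1), 2104 (NP 2) and 3004 (OVA 1) cells with 20533741, 16161435 and 21412501 UMIs. A minimum of 500 genes per cell and a mitochondrial share of no more than 10% were met by 2600, 1756 and 2385 cells. Each was thinned at random to 2500 UMIs so that states of unlike depth could be compared, which left out 262, 154 and 231 shallower cells and kept 6094 cells in all. A list of B cell markers that includes Cd79a, Cd79b and Ms4a1 reached at least 3 UMIs in 97.9 to 99.2% of the cells of each library, and T cell markers in 0.128 to 1.16%. Pairs of libraries shared 9 to 11 cell barcodes.

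Cell states were set with the same limits in all libraries. Mitotic cells had at least 5 UMIs over 15 mitotic genes. Mcm5-positive cells, in or near S phase, had at least 1 Mcm5 UMI and were not mitotic. Noncycling cells were neither, with at most 1 mitotic and 4 S phase UMIs, and numbered 2336, of which those with at least 2 Cd83 UMIs formed the Cd83-high noncycling state (240, 164 and 254 cells in NP 1, NP 2 and OVA 1). Cxcr4-high cells had at least 1 Cxcr4 UMI, were not mitotic and had no Mcm5 UMI (269, 77 and 134 cells). Unlike the Cd83-high state, they were not held to the noncycling limits on mitotic and S phase UMIs. The 89 cells that met both the Cd83-high noncycling and the Cxcr4-high definition were put in neither. The limits cut through a continuum: 575 noncycling cells had 1 Cd83 UMI and 299 had exactly 2, 390 of the 480 Cxcr4-high cells had exactly 1 Cxcr4 UMI, and 231 cells fell 1 UMI short of the mitotic limit against 161 just at it. Light zone genes summed to 31.2 to 33.3 UMIs per 10000 in Cd83-high noncycling cells and 5.92 to 8.66 in Cxcr4-high cells, and dark zone genes to 5.07 to 6.90 and 12.4 to 15.7, with Cd83 and Cxcr4 themselves in those sums. Genes of memory or naive B cells were higher in Cd83-high noncycling cells (5.07 to 7.32) than in Cxcr4-high cells (2.03 to 3.28). Germinal center genes were lower in each library, at 12.0 to 16.4 against 15.4 to 18.5. Myeloid genes summed to 1.56, 2.86 and 52.8 UMIs per 10000 in Cxcr4-high cells of NP 1, NP 2 and OVA 1. At least 3 myeloid UMIs were found in 1.12%, 1.30% and 4.48% of these cells, the largest share of any exclusive state in each library. The part of such cells in the Cxcr4-high levels of members other than Ddit4 was not tested. Myc-positive cells, with at least 1 Myc UMI, could belong to any state.

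The RefSeq windows of 250 bases upstream of the annotated start (GRCm38.p6) are shown for Ddit4 and Sesn1, the members with the largest differences by clone size below. Capitals mark ACGTG, the core of the site bound by hypoxia-inducible factors, and CCAAT, the CCAAT box, on either strand (ATTGG is CCAAT on the other strand). Ddit4 lies at chr10:59949675-59951770 on the minus strand, and its window is chr10:59951771-59952020. Sesn1 lies at chr10:41810574-41908436 on the plus strand, with its window at chr10:41810324-41810573.
Ddit4: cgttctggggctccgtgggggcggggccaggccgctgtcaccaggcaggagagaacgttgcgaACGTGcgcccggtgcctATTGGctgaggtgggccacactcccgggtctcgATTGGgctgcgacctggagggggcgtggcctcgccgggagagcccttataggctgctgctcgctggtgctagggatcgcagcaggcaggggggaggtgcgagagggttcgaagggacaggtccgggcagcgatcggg
Sesn1: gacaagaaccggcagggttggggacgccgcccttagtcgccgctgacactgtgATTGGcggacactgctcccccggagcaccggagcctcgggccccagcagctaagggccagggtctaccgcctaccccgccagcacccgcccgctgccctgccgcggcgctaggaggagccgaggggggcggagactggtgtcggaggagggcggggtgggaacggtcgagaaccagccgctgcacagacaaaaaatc
The Ddit4 window held 1 ACGTG and 2 CCAAT matches, and the Sesn1 window 1 CCAAT match. ACGTG was found in 16.6% and CCAAT in 33.8% of 32851 mouse windows of the same length. Of the 7 members with a window, 2 held ACGTG (Ddit4 and Slc3a2) and 3 held CCAAT (Ddit4, Sesn1 and Sesn3). Not all of these windows lay upstream of the gene's annotated start. That of Slc3a2 (chr19:8713898-8714147) was inside the gene (chr19:8706882-8723369), and those of Tsc1 and Tsc2 overlapped their genes. None of the 7 held the E-box CACGTG, the ATF4 composite element TGATGNAA, the FOXO site GTAAACA or the TATA box TATAAA, which were in 6.02%, 3.45%, 3.17% and 12.4% of all windows.

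Ddit4 was highest in Cd83-high noncycling cells and lowest in mitotic cells. Its level in the Cd83-high cells was 1.28 UMIs per 10000 in NP 1, 0.683 in NP 2 and 1.59 in OVA 1, or 1.19 ± 0.46 (SD, n = 3 libraries). Mcm5-positive cells had 0.308, 0.160 and 0.416, and mitotic cells 0.198, 0.123 and 0.341, so the Cd83-high cells of every library stood above the cycling cells of all libraries. The log2 ratio of Cd83-high to Mcm5-positive cells was 2.03 ± 0.08 (SD, n = 3) and that to mitotic cells 2.47 ± 0.24. Cxcr4-high cells were in between with 0.654, 0.519 and 0.478 UMIs per 10000, and here the log2 ratio of Cd83-high cells varied more, at 0.97 in NP 1, 0.39 in NP 2 and 1.74 in OVA 1 (1.03 ± 0.67). The level was 0.74 ± 0.40 in the remaining cells and 0.57 ± 0.47 in Myc-positive cells, values that overlap those of Cxcr4-high cells.

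As shares of cells, Ddit4 was detected in 25.8% (95% Clopper-Pearson interval 20.4 to 31.9%) of Cd83-high noncycling cells of NP 1, 15.9% (10.6 to 22.4%) of NP 2 and 28.3% (22.9 to 34.3%) of OVA 1. In mitotic cells it was detected in 4.36% (2.46 to 7.09%), 3.07% (1.33 to 5.95%) and 7.85% (5.04 to 11.6%). These intervals cover counting error only. Before thinning, the shares were 42.1%, 29.3% and 48.0% in Cd83-high cells with medians of 4945, 6522 and 6145 UMIs, and 12.5%, 11.5% and 22.5% in mitotic cells with medians of 7776, 11560 and 11427 UMIs. The captured cells include no type known to lack Ddit4, so the share that free RNA alone would give was not measured.

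The libraries themselves differed. Over all thinned cells Ddit4 was detected in 12.7% (11.4 to 14.2%) of NP 1, 6.30% (5.16 to 7.61%) of NP 2 and 15.6% (14.1 to 17.2%) of OVA 1. NP 2 had the lowest Ddit4 level of the 3 libraries in every state but Cxcr4-high cells, where OVA 1 was lower, and so NP 1 and NP 2, which share antigen, gate and day, differed by more than counting error.

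**Figure D1:**
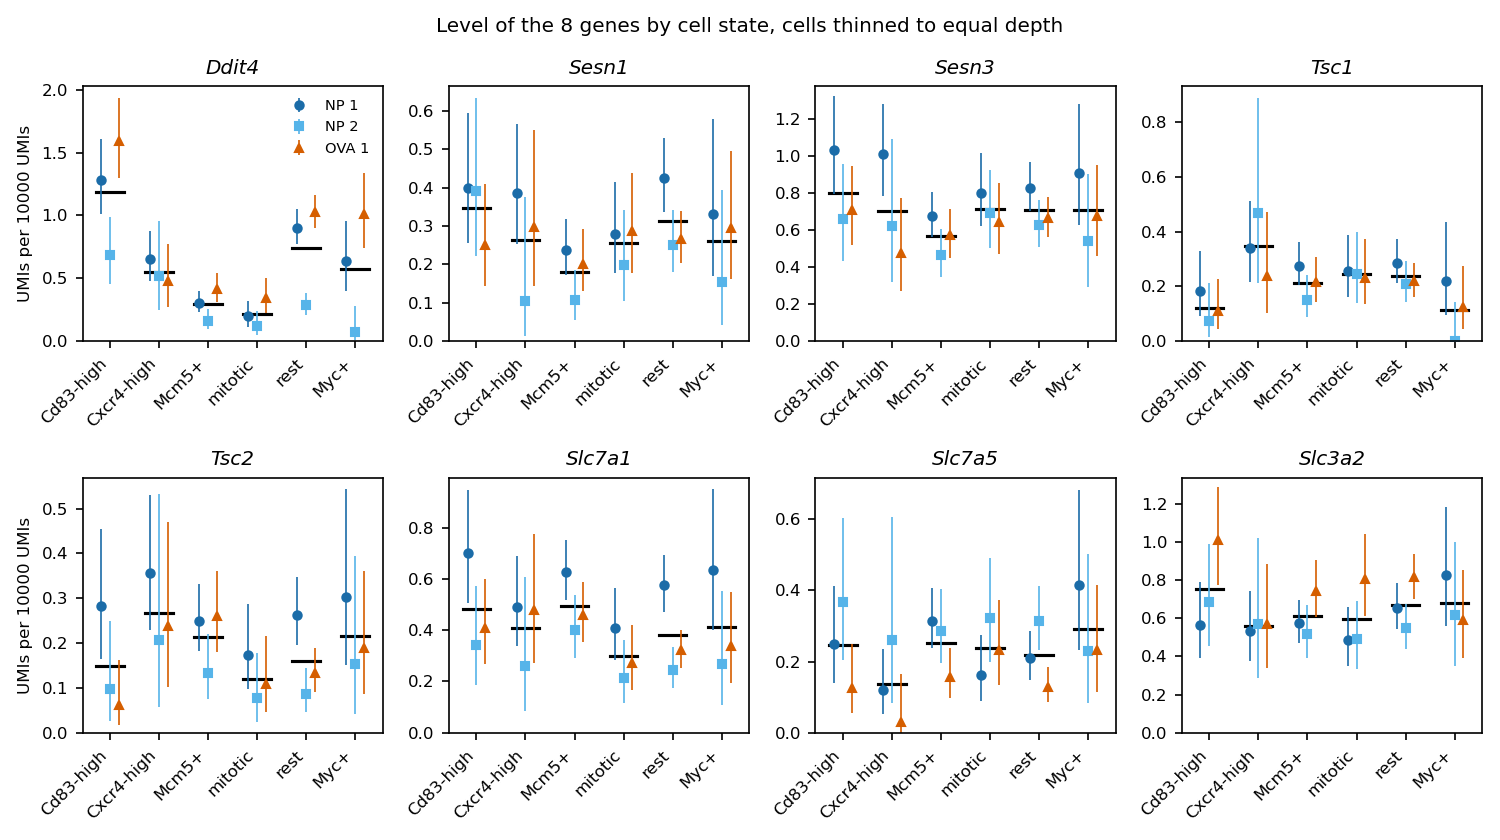
Level of each gene (UMIs per 10000, linear axis) in the 5 exclusive cell states and in Myc-positive cells, with 1 point per library, vertical lines for the 95% exact Poisson interval of the count and black bars for the mean of the 3 libraries. Ddit4 has a mean of 1.19 in Cd83-high noncycling cells and 0.22 in mitotic cells, while the other genes span narrower ranges.

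Among noncycling cells Ddit4 varied less with Cd83 than between noncycling and cycling cells. Ddit4 was detected in 17.9% of noncycling cells with no Cd83 UMI, 21.2% with 1, 25.4% with 2 and 24.3% with 3 or more, over the 3 libraries together. From no Cd83 UMI to 3 or more, the log2 ratio of the Ddit4 level was 0.75 in NP 1, 0.39 in NP 2 and 0.30 in OVA 1 (0.48 ± 0.24, SD, n = 3). Genes of memory or naive B cells, a list that includes Klf2, S1pr1, Ccr7, Ccr6, Fcer2a and Cd38, also went with Ddit4. In noncycling cells with at least 3 UMIs of that list, Ddit4 was detected in 39.2%, 14.7% and 29.9% of cells of NP 1, NP 2 and OVA 1, against 20.5%, 11.2% and 22.7% of the other noncycling cells (log2 ratio of levels 0.65 ± 0.27). Another cell type also carried Ddit4: of 40 cells with at least 3 UMIs of T cell genes, 22 had a Ddit4 UMI (55%, interval 38.5 to 70.7%), and 25 of these cells were in OVA 1. In Cd83-high noncycling cells the summed T cell level was low, at 0.10, 0.195 and 0.441 UMIs per 10000, with 1 of 6 T cell genes at 0. Without cells carrying T cell, myeloid, plasma cell or memory genes, the log2 ratio of Ddit4 between Cd83-high and Cxcr4-high cells was 0.89.

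The sestrins, the leucine-linked inhibitors, also had their highest mean in Cd83-high noncycling cells, but their lowest in Mcm5-positive rather than mitotic cells. For Sesn1 the first of these held in NP 2 alone of the single libraries: the remaining cells were higher in NP 1 (0.424) and OVA 1 (0.266), as were Cxcr4-high (0.299) and mitotic cells (0.287) in OVA 1. Sesn1 was at 0.400, 0.390 and 0.252 UMIs per 10000 in Cd83-high noncycling cells of NP 1, NP 2 and OVA 1, and at 0.238, 0.107 and 0.200 in Mcm5-positive cells. The Sesn1 log2 ratio of those states was 0.98 ± 0.79 (SD, n = 3), positive in each library but from 0.33 to 1.87. In NP 2, Sesn1 was slightly lower still in Cxcr4-high cells (0.104). Sesn3 was at 1.03, 0.659 and 0.709 in Cd83-high noncycling cells against 0.676, 0.463 and 0.571 in Mcm5-positive cells, a log2 ratio of 0.48 ± 0.15. The other states had Sesn3 means of 0.70 to 0.71, closer to each other than their SDs of 0.082 to 0.28. By library, Sesn3 was higher in mitotic (0.690) than in Cd83-high cells of NP 2. In OVA 1 its lowest state was Cxcr4-high (0.478). Sesn1, like Ddit4, was higher in noncycling cells with memory or naive genes, at 18.3%, 17.9% and 11.7% of cells against 10.4%, 5.52% and 4.95% (log2 ratio of levels 1.42 ± 0.50).

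The Tsc complex, through which REDD1 acts, showed another order. Tsc1 was lowest in the Cd83-high noncycling state among the 5 exclusive states of every library, at 0.183, 0.0732 and 0.110 UMIs per 10000, against 0.342, 0.468 and 0.239 in Cxcr4-high cells, the highest mean. The counts behind it were small, 11, 3 and 7 UMIs in Cd83-high cells and 23, 9 and 8 in Cxcr4-high cells. No Tsc1 UMI was seen in the 104 Myc-positive cells of NP 2, which allows a share of up to 2.88% of cells with a UMI at this depth, not of cells expressing the gene, and Tsc1 was detected in 5.52% and 3.16% of those of NP 1 and OVA 1. Tsc2 likewise had its highest mean in Cxcr4-high cells, at 0.357, 0.208 and 0.239 UMIs per 10000, although in OVA 1 Mcm5-positive cells were higher (0.260). It was lowest on average in mitotic cells, at 0.174, 0.0766 and 0.109 on 15, 5 and 8 UMIs, although in OVA 1 Cd83-high cells were lower (0.0630). The log2 ratio of Cxcr4-high to mitotic cells was 1.20 ± 0.21 (SD, n = 3). That ratio rests on few UMIs, with only 77 Cxcr4-high cells in NP 2. Tsc2 in Cd83-high cells differed between libraries, with 17, 4 and 4 UMIs.

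The 3 transporter genes each had an order of their own. The Slc7a1 mean was highest in Mcm5-positive cells (0.627, 0.401 and 0.460 UMIs per 10000) and in Cd83-high noncycling cells (0.700, 0.341 and 0.409), 2 states that overlap, and lowest in mitotic cells (0.407, 0.215 and 0.273). In OVA 1, Cxcr4-high cells were above both of the former (0.478). The Slc7a1 log2 ratio of Cd83-high to mitotic cells was 0.68 ± 0.10 (SD, n = 3). Slc3a2, the shared heavy subunit, was at 0.567, 0.683 and 1.01 in Cd83-high cells and 0.488, 0.490 and 0.805 in mitotic cells, a log2 ratio of 0.34 ± 0.13. In NP 1, Mcm5-positive (0.573), the remaining (0.655) and Myc-positive cells (0.828) were above Cd83-high cells. The lowest Slc3a2 mean was in Cxcr4-high cells (0.558), although in NP 1 and NP 2 mitotic cells were lowest. Slc7a5 had its highest mean in Myc-positive cells (0.414, 0.231 and 0.232) and its lowest in Cxcr4-high cells (0.119, 0.260 and 0.0299). NP 2 showed neither, since its Myc-positive cells were its lowest and below its cells at large (log2 ratio -0.42, against 0.85 in NP 1 and 0.70 in OVA 1). In OVA 1 mitotic cells were level with Myc-positive cells (0.232). Within noncycling cells Slc7a5 was higher with more Cd83 in each library, as a description. It was detected in 2.75%, 5.54% and 1.68% of cells with no Cd83 UMI and in 5.35%, 9.09% and 3.97% of those with 3 or more, a log2 ratio of levels of 0.99 ± 0.22 (0.94, 0.80 and 1.24).

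The genes whose level over 15 points (5 states in 3 libraries) ranked most like that of Ddit4 were Cd72 (Spearman rho 0.95), Dennd1c (0.95), Malat1 (0.94), Cd22 (0.93) and Man1a (0.92), among 2879 genes with a mean of at least 0.5 UMIs per 10000. Cd72 and Cd22 encode inhibitory co-receptors of B cells. Cd72 averaged 4.24 UMIs per 10000 in Cd83-high noncycling and 0.988 in mitotic cells. Of the members past the same minimum, Slc3a2 ranked 310 (rho 0.64) and Sesn3 ranked 620 (rho 0.41). These are descriptions over points that share libraries and states.

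Whether the members differ with the size of a cell's clone was then tested, with a clone defined as cells of 1 library that share V gene, J gene and CDR3 nucleotides of the heavy chain. Ddit4 was lower in cells of clones seen in 2 or more cells than in cells whose clone was seen once. Its level was 0.577, 0.253 and 0.668 UMIs per 10000 in expanded clones of NP 1, NP 2 and OVA 1 (769, 570 and 1000 cells) and 0.767, 0.294 and 0.961 in cells seen once (829, 788 and 787 cells). It was lower in expanded clones in each library, with the smallest difference in NP 2. The fitted log2 fold was -0.47 ± 0.11 (SE), with an adjusted p of 0.00223 by edgeR's quasi-likelihood test with Benjamini-Hochberg adjustment. Of the 8 members, 1 passed and 2 had an unadjusted p under 0.05, where 3.33% of the 8716 genes tested passed (2.23% as lower in expanded clones). Sesn1 had the same sign in each library, 0.291, 0.168 and 0.216 against 0.357, 0.228 and 0.300 UMIs per 10000, with a fitted log2 fold of -0.42 ± 0.17 and an adjusted p of 0.175, or 0.000678 with all UMIs in place of thinned cells. The 6 other members lay between -0.23 (Slc7a5) and 0.09 (Slc7a1) and did not pass.

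The Ddit4 call was kept without NP 2 and lost without NP 1 or OVA 1. The adjusted p was 0.0513 without NP 1, 0.0263 without NP 2 and 0.300 without OVA 1, and 166, 123 and 138 genes passed in place of 290. With DESeq2 on all 3 libraries, the Ddit4 log2 fold was -0.43 ± 0.22 (SE). Its unadjusted p was 0.0527, and DESeq2 gave it no adjusted p. The arms also differed in their cells, and the part of this in the Ddit4 difference was not tested. Expanded clones held more mitotic or Mcm5-positive cells, 52.8%, 50.5% and 42.6% against 41.6%, 42.8% and 34.1%, and memory or naive genes were lower in them, summing to 1.90, 2.10 and 3.52 UMIs per 10000 against 3.14, 3.13 and 5.32, with all 6 tested genes of that list lower. Within all noncycling cells, a choice made after seeing the data, the Ddit4 log2 fold was -0.26 ± 0.14 (adjusted p = 0.646, with 0.747% of genes passing), and within Cd83-high noncycling cells alone -0.25 ± 0.23 (adjusted p = 0.978, with 0.059% passing). Without cells carrying T cell, myeloid, plasma cell or memory genes, which leaves 425 of the 769 expanded cells of NP 1, it was -0.40 ± 0.15 (adjusted p = 0.396), with 19 of 7771 genes passing (0.244%). By clone size class, Ddit4 was detected in 15.7% of cells seen once in NP 1, 11.2% in clones of 2 or 3, 14.0% in clones of 4 to 7 and 9.88% in clones of 8 or more. The same classes gave 6.47%, 8.19%, 5.26% and 4.05% in NP 2 and 18.7%, 15.1%, 11.9% and 13.2% in OVA 1, so no library fell at every step.

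The rest of the pathway moved little with clone size. None of 34 tested mTORC1 and amino acid sensor genes passed in edgeR (4 had an unadjusted p under 0.05). None of 9 other amino acid transporters did (0 at an unadjusted p under 0.05). DESeq2 called 0 in both lists, but it gave an adjusted p to only 672 genes, so that 0 says little. Of 16 ATF4 response genes, Shmt2, a mitochondrial enzyme of serine and glycine metabolism, was higher (0.33 ± 0.09). Of 13 genes linked to FOXO factors, 4 were lower, among them the transcription factor Klf2 (-2.01 ± 0.16), the egress receptor S1pr1 (-1.64 ± 0.35) and Btg1 (-0.38 ± 0.06). Klf2 and S1pr1 are also in the memory or naive list. The FOXO-linked list had a median log2 fold of -0.38, beside -0.005 over all genes. Tsc22d3, a glucocorticoid-induced gene, was also lower (-0.36 ± 0.09), as was Bhlhe40 among 12 hypoxia-linked genes (-0.79 ± 0.21). Of 8 dissociation response genes, which cells switch on during handling, 4 were lower (Ier2, Egr1, Junb and Zfp36, from -0.56 to -0.21), and their part in the Ddit4 difference was not tested. DESeq2 called 1 of the FOXO-linked genes and 0 in the ATF4, glucocorticoid, hypoxia, dissociation and memory or naive lists. Without cells carrying T cell, myeloid, plasma cell or memory genes, none of these edgeR calls remained. None of 9 tested FOXO-linked genes passed there, with a list median of -0.16. Nor did any of 16 ATF4, 5 glucocorticoid, 10 hypoxia and 7 dissociation genes, where 0.244% of all genes passed on fewer cells.

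**Figure D2:**
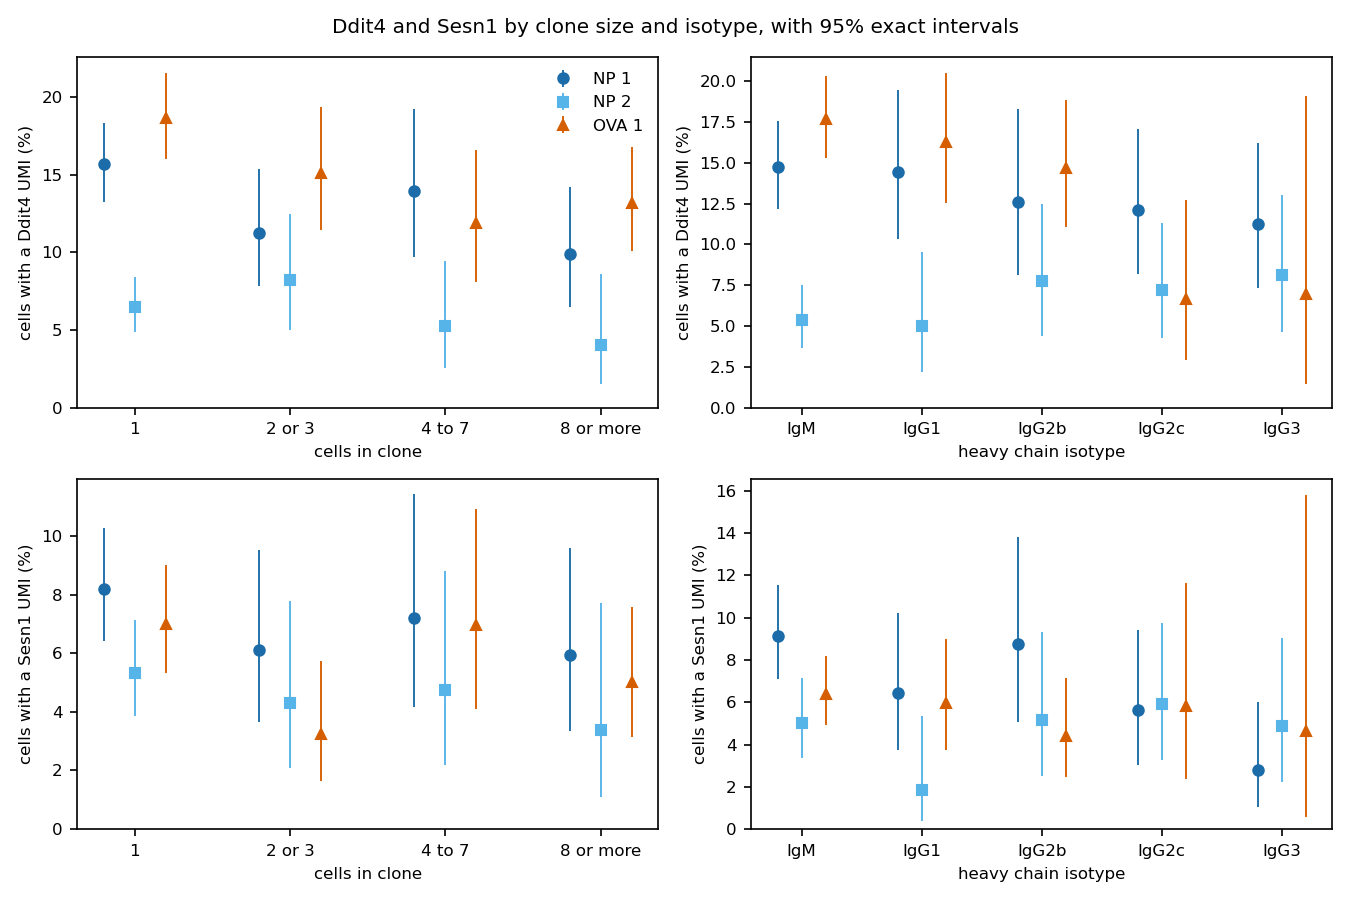
Share of cells with a Ddit4 UMI (top) or a Sesn1 UMI (bottom) by number of cells in the clone (left) and heavy chain isotype (right), in percent of cells thinned to 2500 UMIs, with 1 point per library and 95% exact binomial intervals. Ddit4 in cells seen once lies above clones of 8 or more cells in each library, and the isotypes of NP 2 do not follow the order of the other two libraries.

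Isotype gave no call among the members. Ddit4 was at 0.604, 0.320 and 0.649 UMIs per 10000 in class-switched cells of NP 1, NP 2 and OVA 1 and at 0.762, 0.220 and 0.936 in IgM or IgD cells, so switched cells were lower in NP 1 and OVA 1 and higher in NP 2. The fitted log2 fold was -0.33 ± 0.12, with an adjusted p of 0.230. Leaving out NP 2 gave -0.46 ± 0.11 with an adjusted p of 0.00469. It also passed with all UMIs in place of thinned cells (-0.31, adjusted p = 0.0294) and with at least 1000 genes and at most 5% mitochondrial UMIs (-0.46, adjusted p = 0.0349). Sesn1 was at 0.25, 0.186 and 0.218 in switched cells and 0.423, 0.226 and 0.286 in IgM or IgD cells, lower in each library, with a log2 fold of -0.54 ± 0.16 and an adjusted p of 0.103. None of the 8 members passed in edgeR's quasi-likelihood test (2 had an unadjusted p under 0.05, and DESeq2 also called 0), where 2.12% of 8762 genes passed. The count of genes that passed, 186, was 88 without NP 1 and 89 without OVA 1.

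Within all noncycling cells, chosen after seeing the data, Sesn1 was lower in switched cells, with a log2 fold of -0.77 ± 0.23 and an adjusted p of 0.0430 by edgeR, where 2.87% of genes passed. It was detected in 8.70%, 6.32% and 5.90% of switched and 15.4%, 10.4% and 8.06% of IgM or IgD noncycling cells of NP 1, NP 2 and OVA 1. Memory or naive genes moved the same way in these arms, summing to 4.25, 4.18 and 5.32 UMIs per 10000 in switched and 5.91, 6.90 and 7.50 in IgM or IgD cells, and their part in the Sesn1 difference was not tested. By single isotype over all states, Ddit4 was detected in 14.7% of IgM, 14.5% of IgG1, 12.6% of IgG2b, 12.1% of IgG2c and 11.2% of IgG3 cells of NP 1. The values were 5.36%, 4.97%, 7.77%, 7.20% and 8.11% in NP 2 and 17.7%, 16.2%, 14.7%, 6.67% and 6.98% in OVA 1. The order in NP 2 was nearly the opposite of that in the other libraries, with wide intervals for the rarer isotypes.

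None of 33 mTORC1 and sensor genes passed by isotype (3 had an unadjusted p under 0.05), nor did any of 9 other transporters (0), 16 ATF4 response genes (1) or 11 p53-linked genes (2), and DESeq2 called 0 in these lists. Of 13 FOXO-linked genes, 3 were lower in switched cells, among them Klf2 (-1.84 ± 0.15) and the cell cycle inhibitor Cdkn1b (-1.35 ± 0.28), and Tsc22d3 was lower by -0.35 ± 0.08. The glycolytic enzyme Ldha (0.20 ± 0.05) and the early gene Fos (0.75 ± 0.12) were higher. Of the 7 memory or naive genes, 5 were lower. DESeq2 called 1 of the FOXO-linked and 1 of the memory or naive genes, and 0 in the glucocorticoid, hypoxia and dissociation lists. Without cells carrying T cell, myeloid, plasma cell or memory genes, edgeR still called Klf2 and Fos but not Cdkn1b, Tsc22d3 or Ldha. There 98 of 7816 genes passed.

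Between 2 states that both cycle, mitotic and Mcm5-positive, the values of the members are a description too, since the members were selected on levels by state. Slc7a1, the arginine and lysine carrier, was lower in mitotic cells of each library, with 35, 14 and 20 UMIs in mitotic and 116, 45 and 62 in Mcm5-positive cells and a fitted log2 fold of -0.74 ± 0.19 (SE). Tsc2 was at -0.82 ± 0.30, also lower in each library, on 28 UMIs in all mitotic cells. Ddit4 was at -0.46 ± 0.24, Sesn3 at 0.28 ± 0.15 and Sesn1 at 0.44 ± 0.26. Of the 8 members, 2 (Slc7a1 and Tsc2) had an adjusted p under 0.05 by edgeR, as did 19.0% of all 7509 genes (9.58% as lower in mitotic cells), and nothing is read from that count.

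The Slc7a1 fold was -0.84 to -0.69 without each library in turn and -0.35 ± 0.27 with at least 1000 genes and at most 5% mitochondrial UMIs. The Tsc2 fold was less steady, at -1.11 to -0.59 without each library in turn, -0.35 with all UMIs and 0.10 ± 0.44 with cells thinned to 1500 UMIs, and its adjusted p was under 0.05 in 2 of 11 alternatives. Mitotic arms of NP 2 and OVA 1 held some myeloid cells, with a summed myeloid level of 19.2 and 32.7 UMIs per 10000 from 0.766% and 0.683% of cells, and 0 in NP 1, against 0.005 to 0.650 in Mcm5-positive cells. Without them and the other listed cells Slc7a1 was at -0.72 ± 0.25 and Tsc2 at -0.98 ± 0.39, with 14.6% of genes passing.

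The other genes of the pathway were tested, although their lists were drawn up with earlier results of these data known. Of 31 mTORC1 and sensor genes 6 passed, a share near the 19.0% of all genes: 3 were higher in mitotic cells, among them the Ragulator subunit Lamtor3 (0.97 ± 0.17) and the Rag GTPase Rragc (0.66 ± 0.23), and 3 were lower, among them the translation repressor Eif4ebp1 (-0.82 ± 0.21) and the Rag GTPase Rraga (-0.81 ± 0.11). The list median was 0.009, beside -0.009 over all genes. Of 6 other transporters, the neutral amino acid carrier Slc43a2 was higher (1.09 ± 0.20), and the glutamine carriers Slc38a2 (-0.50 ± 0.13) and Slc1a5 (-0.32 ± 0.09) were lower. Of 15 ATF4 response genes, Atf4 itself was higher (0.32 ± 0.10), and the mitochondrial folate enzymes Shmt2 (-0.67 ± 0.12) and Mthfd2 (-0.46 ± 0.13) were lower. DESeq2 called 2 of the mTORC1 and sensor genes, 0 of the other transporters and 1 of the ATF4 response genes.

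**Figure D3:**
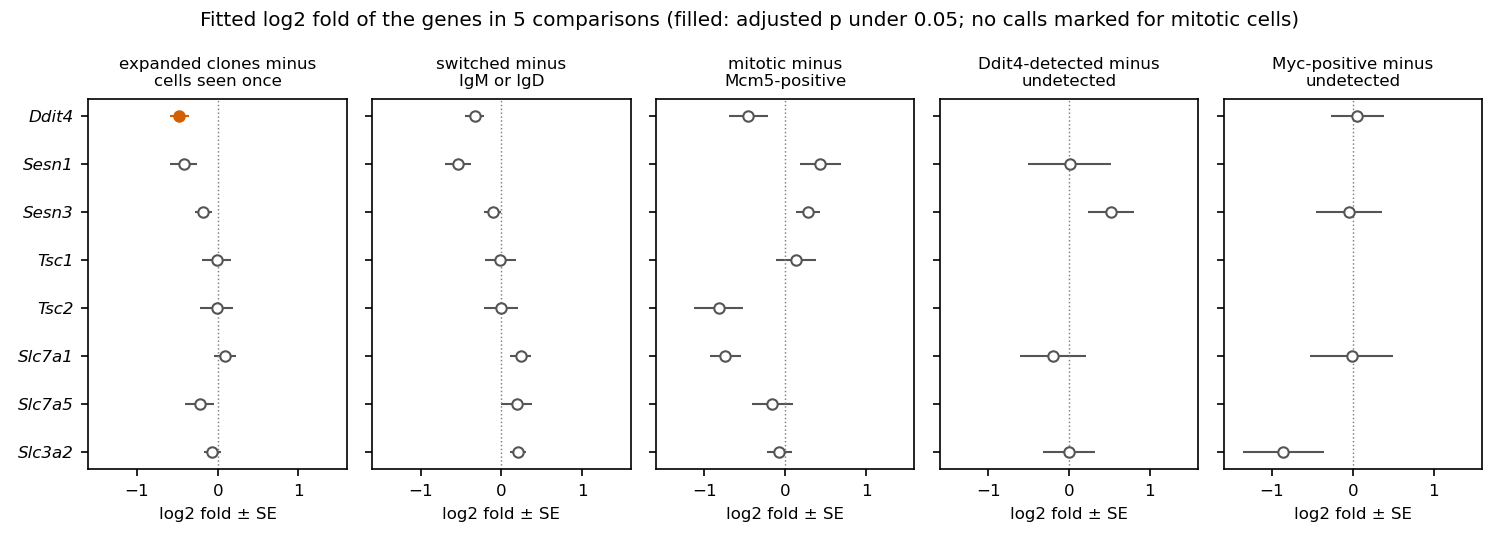
Fitted log2 fold of each gene in 5 comparisons, with points for the estimate, horizontal lines for 1 SE, filled points where the adjusted p was under 0.05 by edgeR, and no point where a gene had too few counts. The mitotic panel is a description and marks no calls, and of the other panels only Ddit4 by clone size is filled.

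Which genes go with Ddit4 in cells of 1 state and 1 depth was asked within the Cd83-high noncycling cells, with 62, 26 and 72 Ddit4-detected cells against 178, 138 and 182 without a Ddit4 UMI. Of the 7 other members 4 had enough counts to be tested and none passed in edgeR (0 at an unadjusted p under 0.05, 0 by DESeq2). Sesn3 was at 0.52 ± 0.29 (adjusted p = 0.746), with 21, 4 and 17 UMIs in the Ddit4-detected cells. Slc3a2 (0.00 ± 0.32), Sesn1 (0.01 ± 0.52) and Slc7a1 (-0.20 ± 0.41) had estimates near 0 whose errors allow sizeable differences. Of 3704 genes, 1 passed (0.027%): Lars2, the mitochondrial leucyl-tRNA synthetase, was higher with Ddit4 (0.47 ± 0.10, adjusted p = 0.00885). No gene passed without OVA 1, and 6 and 2 genes passed without NP 1 and NP 2. None of the genes in the mTORC1, transporter, ATF4, FOXO, glucocorticoid, hypoxia, p53 and dissociation lists passed, and 0 to 3 of each had an unadjusted p under 0.05, with 0 by DESeq2.

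Over all noncycling cells, a wider choice made after seeing the data (185, 69 and 234 Ddit4-detected cells), 137 of 7397 genes passed (1.85%) and again none of the 7 other members did (2 had an unadjusted p under 0.05). Tsc2 was at -1.43 ± 0.48 (adjusted p = 0.104), Slc7a5 at -0.86 ± 0.46 (0.481) and Slc3a2 at 0.39 ± 0.18 (0.364). The largest rises with Ddit4 were T cell genes, led by the CD3 chains Cd3e (2.74 ± 0.34) and Cd3d (2.19 ± 0.31), Skap1 (2.03 ± 0.41) and the adaptor Lat (1.96 ± 0.28), and the list also held Thy1, Cd8b1, Nkg7, Spn, Smpdl3a and the memory-linked receptor Ccr6 (1.39 ± 0.26). All 4 tested T cell genes were higher, and the T cell list summed to 0.541, 0.928 and 3.97 UMIs per 10000 with Ddit4 against 0.145, 0.885 and 0.497 without. The myeloid list summed to 1.71, 2.20 and 1.01 with Ddit4 and to 0.671, 11.8 and 30.6 without. Klf2, Bhlhe40 and the p53 target Bbc3, named by the lists, were higher too. The largest falls were Stmn1, a microtubule regulator of dividing cells (-1.65 ± 0.25), Myl4 (-1.39 ± 0.28), H1fx (-1.25 ± 0.33), Mrto4 (-1.16 ± 0.29), Smyd5 (-1.12 ± 0.34) and Nolc1, with Rgcc, the germinal center gene Gcsam (-0.92 ± 0.20), Mrps18a and the kinase Pim1 (-0.85 ± 0.15) after them.

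Once cells with T cell, myeloid, plasma cell or memory genes were left out of the noncycling cells, also a later choice, 23 of 5638 genes passed (0.408%) and no T cell gene was tested. The genes higher with Ddit4 then included the MHC class II genes H2-Aa (0.27 ± 0.05), H2-Eb1 (0.23 ± 0.05) and H2-Oa (0.47 ± 0.10), the Fc receptor for IgM Fcmr (0.41 ± 0.10), Cd37, Cd52, Sp140, Myl12b and the ribosomal genes Rps7 and Rpl36a. Stmn1 was lower by the most (-2.01 ± 0.39), followed by Safb2 (-1.05 ± 0.24), Sf3a2 (-1.04 ± 0.25), Hmgn2 (-0.60 ± 0.13), H2afz (-0.52 ± 0.13), Ncl (-0.52 ± 0.12) and Hmgb2 (-0.49 ± 0.12). Several of these, such as Stmn1, H2afz and Hmgb2, are chromatin or cytoskeletal genes known to be high in dividing cells. Slc3a2 was at 0.69 ± 0.24 in these cells (adjusted p = 0.290).

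Myc-positive cells of the Cd83-high noncycling state (16, 22 and 40 cells against 224, 142 and 214) had 5, 2 and 20 Ddit4 UMIs, and the fitted log2 fold of Ddit4 was 0.06 ± 0.33 (adjusted p = 0.982). Of 4 members with enough counts none passed in edgeR (0 at an unadjusted p under 0.05, 0 by DESeq2), where 0.154% of 3253 genes passed. These 5 genes, named because they are few and so after their values were seen, were Batf, Pim1, Il4i1, Nfkbia and Junb, all higher with Myc, and none passed without NP 2. Junb belongs to the dissociation response list, which summed to 19.0, 15.5 and 20.7 UMIs per 10000 in Myc-positive cells against 9.89, 12.5 and 12.8 in the others, and the part of this in the calls was not tested. Slc3a2 was at -0.86 ± 0.50 (adjusted p = 0.678), with 0, 2 and 8 UMIs in Myc-positive cells, but at 0.05 ± 0.28 with all UMIs in place of thinned cells. With all UMIs, Sesn1 was at -1.28 ± 0.44 (adjusted p = 0.148) and Slc7a5 at 0.79 ± 0.39 (adjusted p = 0.399) by edgeR. None of 6 tested members passed there (2 had an unadjusted p under 0.05), where 112 of 6145 genes passed. Over all states Tsc1 was at -0.90 ± 0.39 (adjusted p = 0.338) and Slc7a5 at 0.50 ± 0.30 (adjusted p = 0.624) with Myc, where 1.68% of genes passed. A difference of the members with Myc was thus not detectable at this depth, and the errors do not limit it to a small value.

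Counted cell by cell, Ddit4 and Myc were detected together in 3, 2 and 14 Cd83-high noncycling cells of NP 1, NP 2 and OVA 1, beside 4.13, 3.49 and 11.3 if detection were independent. The odds ratios were 0.65 (95% exact conditional interval 0.11 to 2.47), 0.49 (0.053 to 2.26) and 1.45 (0.65 to 3.11), and the log2 odds ratio, computed here and below with 0.5 added to each of the 4 cell counts, averaged -0.23 ± 0.69 (SD, n = 3). The libraries lay on both sides of an even ratio. Ddit4 and Slc7a5 were detected together in 3, 2 and 1 of these cells, a log2 odds ratio of -0.35 ± 0.67. Over all noncycling cells there were 5, 2 and 3 such cells beside 7.47, 3.90 and 5.86 if independent, and the log2 odds ratio was below 0 in each library (-0.63, -0.81 and -1.01). Each interval of those odds ratios includes 1. With 3 libraries an exact sign-flip test cannot go below a two-sided p of 0.25, so none was made.

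**Figure D4:**
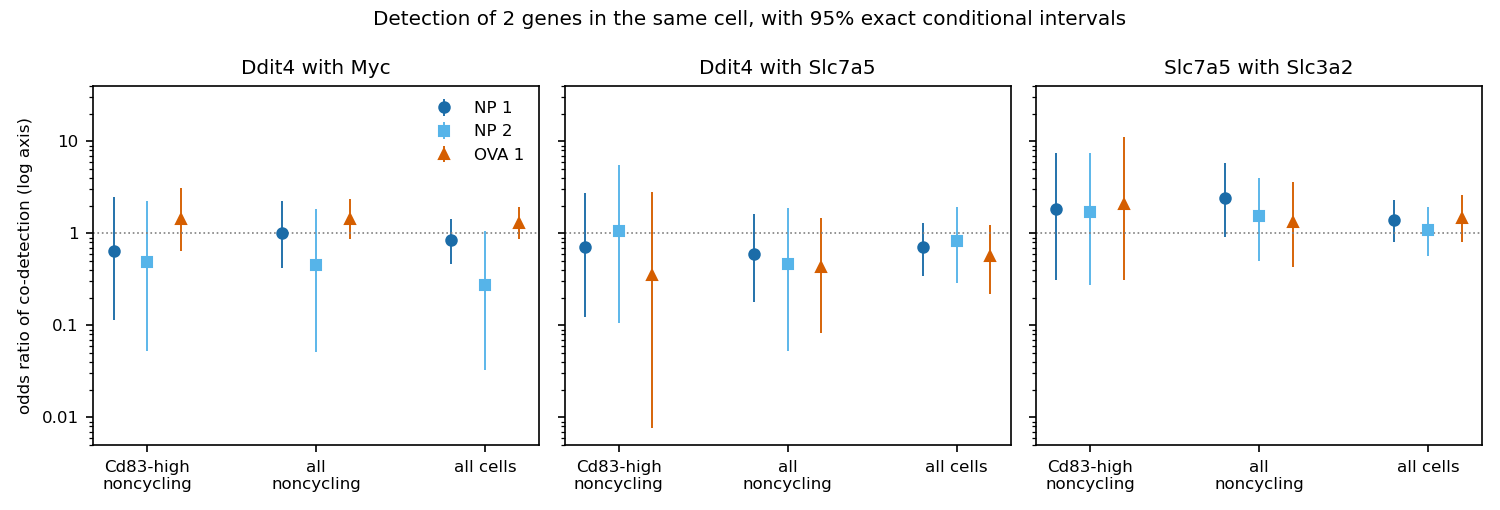
Odds ratio (log axis) for detecting a pair of genes in the same cell, for Ddit4 with Myc, Ddit4 with Slc7a5 and Slc7a5 with Slc3a2, in Cd83-high noncycling, all noncycling and all thinned cells, with 1 point per library and 95% exact conditional intervals. All intervals cross the dotted line at an odds ratio of 1.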

How the data were processed

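Droplet 5′ single-cell RNA-seq of 3 gene expression libraries gave the deposited table of whole-number UMI counts per gene and cell, made with Cell Ranger on mm10 per the submitters' processing notes. The sources used here do not give versions, filters or how cells were called. The deposited immunoglobulin contig tables, with UMI counts per contig, gave the heavy chain of each cell. The bulk immunoglobulin libraries were not used here.

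Cells with at least 500 genes and at most 10% mitochondrial UMIs were thinned to 2500 UMIs. UMIs were summed per library and arm, immunoglobulin genes (227) were removed, and all genes past filterByExpr were tested with edgeR 4.0.16 (quasi-likelihood, TMM, Benjamini-Hochberg over all genes, threshold 0.05) in R 4.3.3, with library as a block: both arms of a comparison are cells of the same library, which is where the pairing comes from. DESeq2 1.42.0 was an alternative. States, intervals and odds ratios were computed with numpy 2.4.6 and scipy 1.17.1 in Python 3.11.15. The scripts were tested on simulated data. No doublet caller was run, and 130 cells with more than 1 productive heavy chain stayed in.

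The members and gene lists were chosen with earlier results of these data known. Named were all members, up to 4 genes per list past the threshold, for Ddit4-detected cells the 10 largest rises and 10 largest falls past it, and the 5 genes ranked most like Ddit4. Some members of the marker and pathway lists count in the lists' sums but are not reported here by name. Comparisons within all noncycling cells were added after seeing the data. Alternatives changed scaling, test, filter, block, depth, cell filter, state limits and libraries.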

Additional observations from a re-analysis of the deposited data

Results flagged for a closer look

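In 3 comparisons a member had 1 sign in both NP libraries and the other sign in OVA 1. The difference between the antigens was not tested in any of them, and with 1 OVA library of another gate it cannot be told apart from a difference of gate or of library. Sesn3 was higher in switched than in IgM or IgD cells by a log2 ratio of 0.042 in NP 1 and 0.090 in NP 2, and was at -0.37 in OVA 1. Tsc2 in the same comparison was at -0.10 in NP 1, -0.25 in NP 2 and 0.31 in OVA 1. Slc3a2 in mitotic against Mcm5-positive cells was at -0.23 in NP 1, -0.075 in NP 2 and 0.12 in OVA 1. None of the 3 passed over all libraries.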

How the results depend on the processing

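Over 392 alternative values for single members, 365 kept their sign or stayed short of the threshold as before, 20 no longer passed it, 6 newly passed it and 1 turned: Tsc2 in mitotic against Mcm5-positive cells was 0.10 with cells thinned to 1500 UMIs. Where a value changed, the cause was not tested, except that fewer cells or UMIs were used where cells were left out or thinned further. Ddit4 by clone size passed in 6 of the 14 alternatives that gave it an adjusted p, and DESeq2, which gave it none, is not among these. Pairing decided many calls: with no replicate block, so that arms of the same library are not matched, 0 genes passed by clone size (150 at an unadjusted p under 0.05), 0 by isotype (216), 301 in mitosis, 3 with Myc and 0 with Ddit4 (133). By clone size (290 genes), the count was 67 with DESeq2, 150 at 1500 UMIs, 556 with all UMIs, 117 with at least 1000 genes and at most 5% mitochondrial UMIs, 19 without T cell, myeloid, plasma cell and memory list cells, 2 in Cd83-high noncycling cells, 51 in all noncycling cells and 1 in these without list cells, and 123 to 166 without 1 library. By isotype (186 genes) it was 14 with DESeq2, 520 with all UMIs, 98 without list cells, 7 in Cd83-high noncycling cells and 88 to 233 without 1 library. In mitosis (1425 genes) it was 344 with DESeq2, 674 at 1500 UMIs, 3087 with all UMIs, 876 without list cells and 899 to 1105 without 1 library. With Myc (5 genes) it was 19 with no filter, 8 at 1500 UMIs, 112 with all UMIs, 21 with the stricter cell filter, 3 without list cells, 17 with state limits 1 UMI higher, 148 in all thinned cells, 104 in all noncycling cells and 0 to 5 without 1 library (205 at an unadjusted p under 0.05 for the 0, without NP 2). With Ddit4 (1 gene) it was 2 with RLE factors, 0 with DESeq2 (22 unadjusted), 0 with no filter (505), 0 at 1500 UMIs (62), 22 with all UMIs, 4 with the stricter cell filter, 0 with higher limits (131), 1124 in all thinned cells, 137 in all noncycling cells, 23 in these without list cells, and 0 to 6 without 1 library (192 unadjusted for the 0, without OVA 1). The log2 odds ratio of Ddit4 with Myc was -0.97 with the stricter cell filter, -1.12 with higher limits and -0.62 to 0.04 without 1 library, and that with Slc7a5 was 0.35 at 1500 UMIs and -0.69 to -0.02 without 1 library. The log2 ratio of Ddit4 between Cd83-high and Cxcr4-high cells was 0.68 to 1.35 without 1 library, and limits 1 UMI higher gave no value because a library had no Ddit4 UMI in the Cxcr4-high cells. Depth limits all members, with 912 Ddit4 and 279 Tsc2 UMIs in 6094 thinned cells.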

Other observations

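Slc7a5 and Slc3a2, the subunits of the leucine carrier, were detected together in 3 Cd83-high noncycling cells of each library, beside 1.88, 2.05 and 1.83 if independent, a log2 odds ratio (0.5 added to each cell count) of 1.02 in NP 1, 0.88 in NP 2 and 1.13 in OVA 1, and over all thinned cells it was 0.50, 0.15 and 0.59. Each interval includes an odds ratio of 1.

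Ddit4 and Tsc2 were detected together in 7, 0 and 2 noncycling cells of NP 1, NP 2 and OVA 1, beside 11.9, 1.42 and 6.83 if independent. The 95% exact intervals of the odds ratio were 0.19 to 1.16, 0 to 2.69 and 0.026 to 0.94, so those of NP 1 and NP 2 include 1. Other pairs were counted too, and some also had an interval without 1 in a single library. Examples are Ddit4 with Slc7a1 in all thinned cells of NP 1 (1.13 to 2.21) and with Slc3a2 in noncycling cells of OVA 1 (1.04 to 2.15). No adjustment was made for the number of intervals.

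Of 130 cells with more than 1 productive heavy chain 7.69% (3.75 to 13.7%) had a Ddit4 UMI, against 12.5% (11.6 to 13.5%) of the 4613 cells with 1 such chain.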
